A study of Mus musculus with 6 samples.

Results

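Immunoglobulin heavy-chain variable segments are the genes named Ighv followed by a number, and all of them in the deposited count table were taken: 185 of 56884 genes. They carry 183 distinct symbols, since Ighv1-13 and Ighv5-8 each stand for 2 gene identifiers. All 185 were found in the GENCODE M21 annotation on chromosome 12, 115 of them annotated as genes and 70 as pseudogenes, in 16 families numbered by sequence. Messenger RNA of whole ectopic lesions was sequenced, with 1 library per lesion, 3 control (WT) and 3 Dnmt3a knockout (KO). Uterine tissue for the WT lesions came from Dnmt3a f/f mice and that for the KO lesions from Dnmt3a f/f:PR-Cre/+ mice, in which Cre is expressed from the progesterone receptor locus and removes the floxed part of Dnmt3a in cells with that receptor. Both kinds of tissue were placed in wild-type recipients treated with estradiol (C57BL/6J females of 8 weeks in the methods), so the floxed allele was in the donor tissue of both groups and the deletion only in that of the KO group. The labels give 4 weeks and an injection of fragments into the peritoneal cavity, while the methods give day 21 and a fragment sutured to the mesenteric membrane. A B lineage cell in these lesions may stem from the recipient or from the donor tissue, and the counts do not tell them apart.

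Each developing B cell joins 1 variable, 1 diversity and 1 joining segment of the heavy-chain locus, and it then transcribes the joined exon together with a constant gene. The variable segment holds the first and second complementarity-determining regions (CDR1 and CDR2), loops that touch antigen. Plasma cells, which secrete antibody, hold far more of this transcript than resting B cells, so that reads in a variable segment come mostly from plasma cells where these are present. The measure therefore follows RNA, and a segment with many counts may come from 1 large clone, from several clones with the same segment or from a few cells rich in transcript. In these bulk samples, fewer cells of a type and less RNA per cell cannot be told apart.

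The segment with the most counts differed in each of the 6 lesions. The germline sequences of these 6 segments are printed so that their loops can be compared. They run from the codon of the first conserved cysteine to that of the second, 5′ to 3′ on the coding strand, from the GENCODE M21 transcripts (GRCm38), with the codons of CDR1 (first run of capitals) and CDR2 (second run) in capitals as found from the conserved cysteine and tryptophan positions. They are reference sequences and not reads of the lesions.
Ighv10-3: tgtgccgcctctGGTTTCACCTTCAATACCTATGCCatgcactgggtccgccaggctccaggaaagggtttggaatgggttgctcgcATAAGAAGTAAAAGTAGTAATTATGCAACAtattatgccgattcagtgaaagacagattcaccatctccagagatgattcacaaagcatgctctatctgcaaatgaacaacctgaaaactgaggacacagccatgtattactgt
Ighv3-6: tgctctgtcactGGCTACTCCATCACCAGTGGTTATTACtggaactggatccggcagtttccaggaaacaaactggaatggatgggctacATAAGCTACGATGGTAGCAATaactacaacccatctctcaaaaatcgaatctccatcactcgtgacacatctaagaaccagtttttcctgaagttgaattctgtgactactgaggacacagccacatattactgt
Ighv7-3: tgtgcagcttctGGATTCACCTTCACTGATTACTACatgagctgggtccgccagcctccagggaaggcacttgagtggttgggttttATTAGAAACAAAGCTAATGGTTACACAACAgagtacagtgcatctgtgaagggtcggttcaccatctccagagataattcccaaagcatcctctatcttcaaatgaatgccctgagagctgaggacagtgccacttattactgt
Ighv1-9: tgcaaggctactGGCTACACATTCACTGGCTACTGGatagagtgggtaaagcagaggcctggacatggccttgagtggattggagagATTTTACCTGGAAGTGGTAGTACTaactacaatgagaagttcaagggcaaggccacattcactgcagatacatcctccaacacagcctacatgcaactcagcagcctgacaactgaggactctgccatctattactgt
Ighv1-26: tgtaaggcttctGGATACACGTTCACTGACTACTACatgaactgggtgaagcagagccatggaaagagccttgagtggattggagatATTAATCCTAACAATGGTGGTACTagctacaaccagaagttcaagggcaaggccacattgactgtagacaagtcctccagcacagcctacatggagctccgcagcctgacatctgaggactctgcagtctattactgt
Ighv1-11: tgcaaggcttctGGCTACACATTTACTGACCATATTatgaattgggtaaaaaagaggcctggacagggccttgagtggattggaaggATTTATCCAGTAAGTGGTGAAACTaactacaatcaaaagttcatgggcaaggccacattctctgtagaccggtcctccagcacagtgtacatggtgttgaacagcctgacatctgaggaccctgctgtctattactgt
Ighv10-3 led in WT replicate 1, Ighv3-6 in WT replicate 2, Ighv7-3 in WT replicate 3, Ighv1-9 in KO replicate 1, Ighv1-26 in KO replicate 2 and Ighv1-11 in KO replicate 3. The leaders of the WT lesions came from 3 families and those of the KO lesions from the Ighv1 family alone. Over whole transcripts, the Ighv1 leaders were 78.1% to 84.0% identical to each other, and every other pair of the 6 was 54.0% to 72.0% identical. CDR2 has 10 codons in Ighv10-3 and Ighv7-3, 8 in the Ighv1 leaders and 7 in Ighv3-6, while CDR1 has 9 codons in Ighv3-6 and 8 in the others. Counted from the constant genes, the leaders lie between place 52 (Ighv7-3) and place 108 (Ighv1-26) of the 185 segments.

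The 6 libraries held 45370342 to 57239184 counts. Dnmt3a, the targeted gene, was at 52.7, 43.9 and 51.7 CPM (counts scaled to the library total with a TMM factor) in WT lesions, against 30.3, 33.5 and 36.2 CPM in KO, with every WT value above every KO value. Several libraries stood apart in markers of other cells. WT replicate 2 had 9640 raw CPM (counts scaled to the library total alone) in 7 neutrophil genes, against 39.1 to 455 elsewhere, WT replicates 1 and 3 had 28606 and 33383 raw CPM in 8 skeletal muscle genes, against 7.03 to 21.6, and WT replicate 3 had 4416 raw CPM in 6 pancreatic acinar genes, against 7.38 to 16.7. All 10 endometrium markers were tested, and their sum was 966 to 1547 raw CPM in WT and 1283 to 2147 in KO lesions. In edgeR 9 had a higher fitted level in KO lesions and 1 a lower one. Of these, Esr1 and Hoxa11 had an unadjusted p under 0.05 and a log2 fold change above 1, beside 3.1% of all tested genes. Without WT replicate 2 this held for 0 of 10, beside 2.1%. The part of all these markers in the results was not tested, and values that rest on WT replicate 2 are given with and without it.

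The segments took up a larger share of the RNA in each WT lesion than in any KO lesion. Their sum was 6422, 75709 and 9679 counts in the WT lesions, in the order of their replicate numbers, and 4494, 3367 and 5879 in the KO lesions. This was 130.4, 1669 and 196 raw CPM in WT and 78.5, 70.2 and 128.1 in KO lesions. The groups did not overlap, but WT replicate 1 and KO replicate 3 lay side by side, and WT replicate 2 was far above all others (p = 0.1 by an exact two-sided permutation test, which cannot go lower with 3 lesions a group). The log2 fold change of the summed segments was -2.93 (standard error, SE, 1.04), which did not pass once adjusted by Benjamini-Hochberg (edgeR's quasi-likelihood model, unadjusted p = 0.0299, adjusted p = 0.327). Without WT replicate 2 it was -0.94 with an SE of 0.32 (same edgeR model, unadjusted p = 0.0319, adjusted p = 0.304). Without any 1 of the KO lesions the unadjusted p was 0.0625 to 0.0906 in edgeR.

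**Figure D1:**
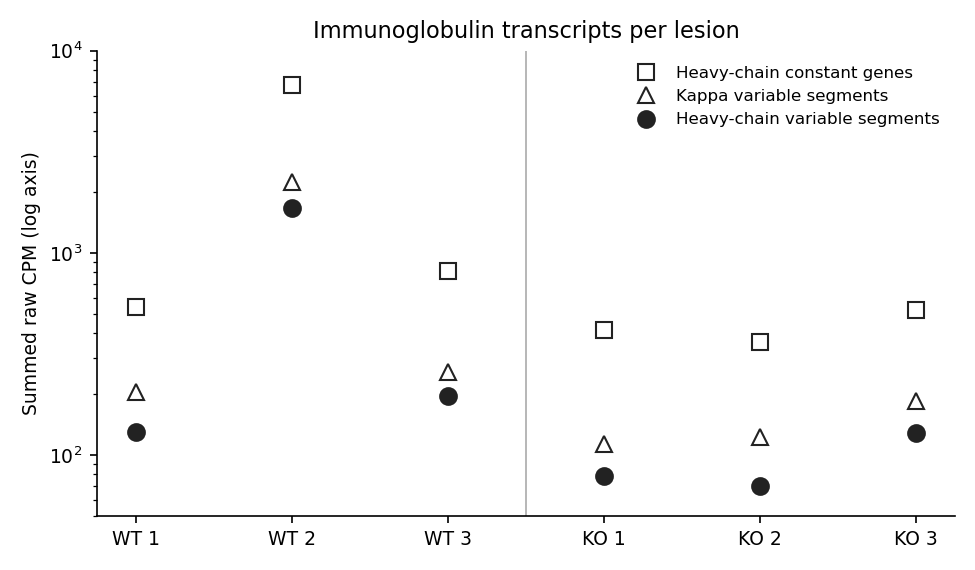
Raw CPM (log axis) of the 185 heavy-chain variable segments (filled circles), the 160 kappa variable segments (triangles) and 8 heavy-chain constant genes (squares), 1 column per lesion. The 3 classes followed each other across lesions, and WT replicate 2 reached 1669 raw CPM in heavy-chain variable segments, above 70.2 to 196 elsewhere.

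The other genes of the antibody went along with the segments. Heavy-chain constant genes had 4.15, 4.07 and 4.16 counts per Ighv count in WT and 5.28, 5.15 and 4.05 in KO lesions. Kappa variable segments, which supply the light-chain partner, had 1.56, 1.34 and 1.32 counts per Ighv count in WT and 1.44, 1.74 and 1.44 in KO lesions. Both ratios overlapped between the groups, while the Ighv level itself ran over a far wider range.

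Of the 185 segments, 117 had a count in at least 1 lesion and 68 had none. Annotation split them: 101 of the 115 genes were detected and 16 of the 70 pseudogenes. The pseudogenes held 0% to 0.153% of the Ighv counts of a lesion. A count of 0 allows up to 3 sequenced fragments, and intervals and this limit cover counting error only. Counts were detected in all 6 lesions for 41 segments, and 17 segments were seen only in WT replicate 2.

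Detected segments numbered 77, 114 and 77 in WT and 67, 71 and 80 in KO lesions. The groups overlapped through KO replicate 3 (mean 89.3 ± 21.4 in WT and 72.7 ± 6.66 in KO, SD, n = 3, exact two-sided permutation test, p = 0.3). With the pseudogenes left out the numbers were 75, 101 and 76 in WT and 67, 69 and 74 in KO, which no longer overlapped (exact permutation test, p = 0.1, the smallest this design allows). A library with more Ighv counts shows more rare segments, so the number was also computed for a common depth of 3367 counts, the smallest Ighv total. It was then 73.3, 86.1 and 68.2 in WT and 65.8, 71.0 and 76.2 in KO lesions (exact two-sided permutation test, p = 0.6). At equal depth WT replicate 3 lay below 2 of the KO lesions, and KO replicate 3 lay above WT replicates 1 and 3, as it did at full depth.

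The spread of the counts over segments also overlapped between the groups. The effective number of segments, which is the number of equally abundant segments with the same Shannon entropy, was 22.6, 31.0 and 12.5 in WT and 19.0, 25.4 and 30.4 in KO lesions. The means were 22.0 ± 9.23 in WT and 24.9 ± 5.72 in KO (SD, n = 3, exact two-sided permutation test, p = 0.7). WT replicate 3 was the most uneven lesion, and WT replicate 2 and KO replicate 3 were the most even, so the WT values reached beyond the KO values at both ends. KO replicate 3 reached its effective number with 5879 Ighv counts, and WT replicate 2 reached a like number with 75709. The inverse Simpson index, which gives more weight to the top segments, was 11.02, 14.2 and 6.01 in WT and 8.59, 13.3 and 20.1 in KO lesions.

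**Figure D2:**
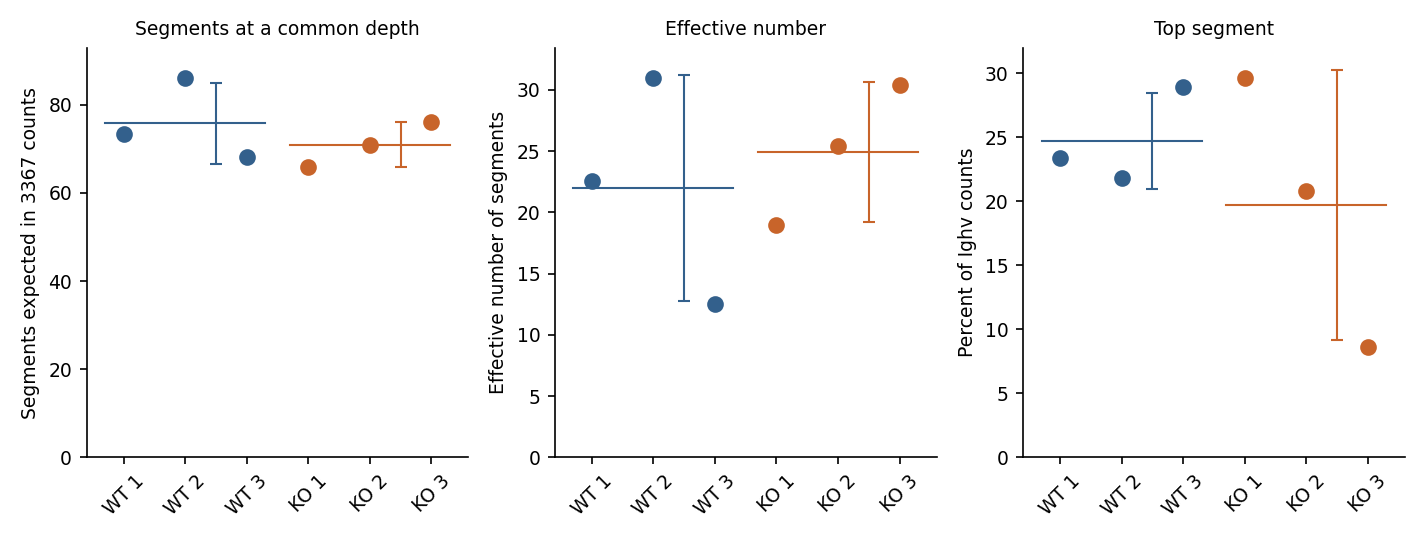
Segments expected in 3367 counts (left), effective number of segments (middle) and percent of Ighv counts in the top segment (right), 1 point per lesion, with the mean as a line and the SD as a bar (n = 3). WT and KO points overlapped in all 3 panels, with exact permutation p-values of 0.6, 0.7 and 0.5.

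A handful of segments held most counts of each lesion. The number of segments that together held 50% of the Ighv counts was 4, 7 and 2 in WT and 4, 6 and 7 in KO lesions, and 90% was reached with 28, 37 and 17 segments in WT and 25, 30 and 32 in KO. The top 10 held 68.2%, 58.2% and 82.8% in WT and 72.2%, 67.7% and 65.8% in KO lesions (exact two-sided permutation test, p = 0.8). WT replicate 3 was the most concentrated, its first 2 segments together holding over 50%, and in WT replicate 2 the counts were spread most widely by this measure.

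**Figure D3:**
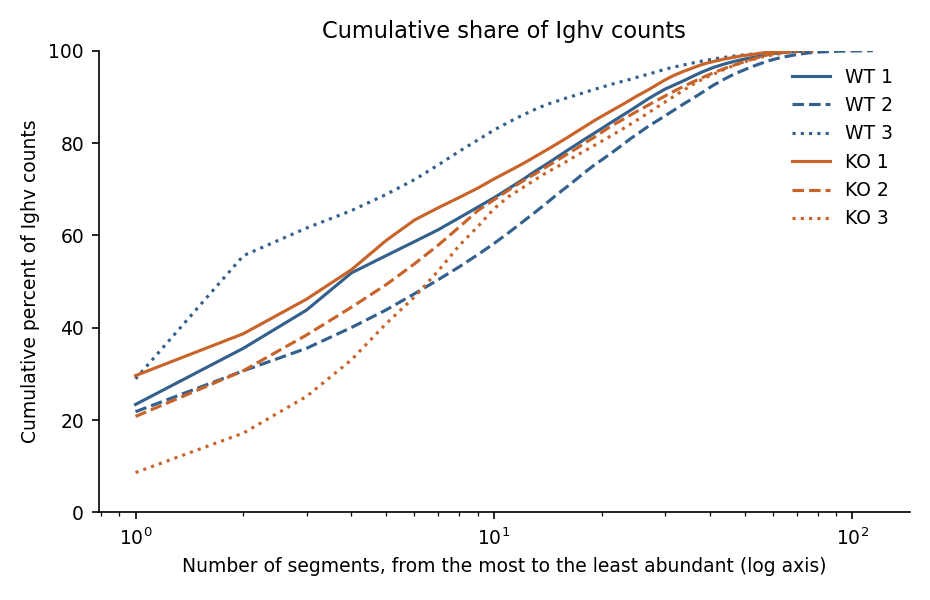
Cumulative percent of Ighv counts against the number of segments, from the most to the least abundant (log axis), 1 line per lesion (WT blue, KO orange). WT replicate 3 rose fastest, to 82.8% with 10 segments, and KO replicate 3 started lowest, at 8.64% for its first segment.

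The share of the leading segment was 23.4%, 21.8% and 28.9% in WT and 29.6%, 20.8% and 8.64% in KO lesions (exact two-sided permutation test, p = 0.5). About 90% of low counts were even in each library, so each sequenced fragment seems to have entered as 2 counts, and Wilson 95% intervals of shares were taken on halved counts. Ighv10-3 held 1502 of the 6422 Ighv counts of WT replicate 1 (23.4%, Wilson 95% interval 22.0% to 24.9%), 0 in WT replicate 3 and at most 0.953% in any other lesion. No second lesion came near this share. Ighv3-6 was high in a pair of lesions, with 21.8% of the counts in WT replicate 2, 12.2% in WT replicate 1, 0.754% in WT replicate 3 and 0.356%, 1.54% and 4.05% in KO lesions. Ighv7-3 held 28.9% in WT replicate 3 (interval 27.7% to 30.2%) and 0.816% to 2.60% elsewhere. In the same lesion Ighv1-11 held 26.7%, so these 2 segments made up most of its Ighv counts.

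Among KO lesions, Ighv1-9 held 29.6% in replicate 1 (interval 27.8% to 31.6%), 3.86% in replicate 2 and 0.272% in replicate 3. Ighv1-26 held 9.08%, 20.8% and 0.714% in KO replicates 1, 2 and 3, and 0.723% to 3.04% in WT lesions. Both segments had a larger share in KO replicates 1 and 2 than in any WT lesion, and their smallest share of the 6 in KO replicate 3. In KO replicate 3 no segment stood out: Ighv1-11 (8.64%), Ighv1-54 (8.56%), Ighv11-2 (7.94%), Ighv1-85 (7.89%) and Ighv4-1 (7.86%) had overlapping intervals, the lowest bound being 6.94% and the highest 9.71%. Dividing counts by transcript length left the leader of each of the 6 lesions in place. Near-identical segments can share reads: the closest other segment was 80.3% identical to Ighv1-11, 91.7% to Ighv3-6, 90.9% to Ighv1-9, 93.4% to Ighv7-3, 96.9% to Ighv1-26 and 96.7% to Ighv10-3, so the last pair are the least certain.

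**Figure D4:**
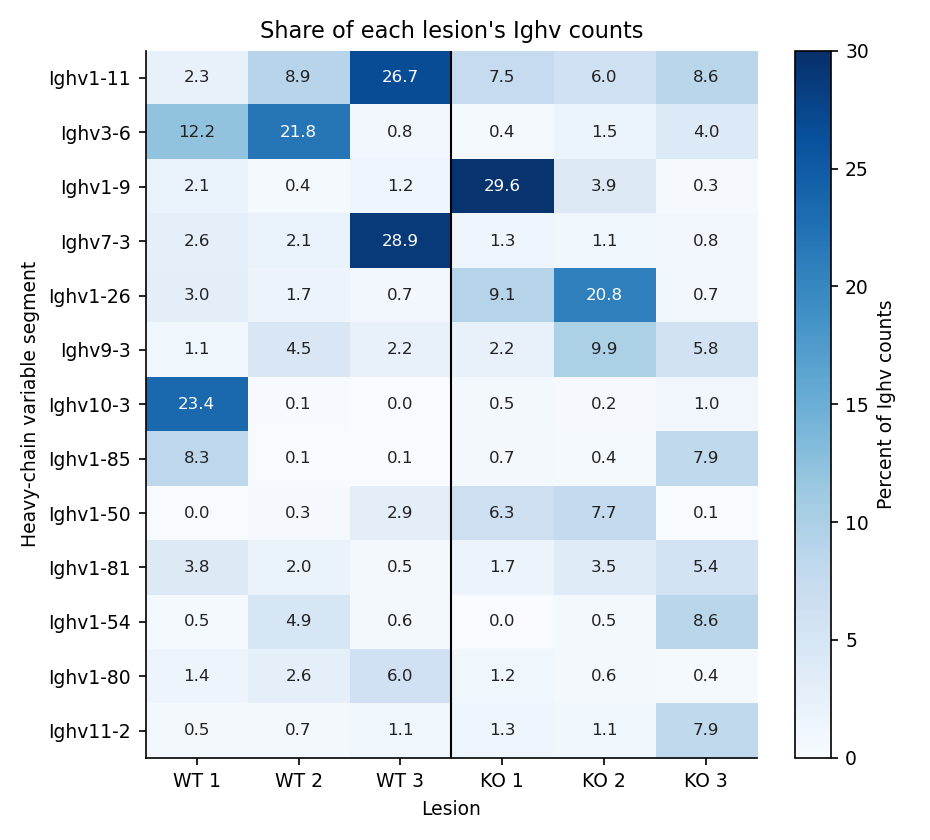
Percent of each lesion's Ighv counts in 13 segments, the 10 with the highest mean share and the other members of a lesion's top 3, with rows as segments, columns as lesions and colour as percent. Dark cells sat in different rows for different lesions, and Ighv1-11 was the only one of these segments in the top 10 of all 6.

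The 6 lists of 10 leading segments held 29 distinct segments, of which 13 were in the list of 1 lesion only. Ighv1-11 alone was in all 6 lists, with shares of 2.27%, 8.87% and 26.7% in WT and 7.48%, 5.999% and 8.64% in KO lesions. Ighv9-3 came next in mean share among those not leading any lesion, at 1.09%, 4.49% and 2.18% in WT and 2.20%, 9.92% and 5.77% in KO. The remaining segments by mean share were uneven too. Ighv1-85 held 8.27% in WT replicate 1 and 7.89% in KO replicate 3 and at most 0.668% in the others, Ighv1-50 held 6.34% and 7.72% in KO replicates 1 and 2, 2.92% in WT replicate 3 and at most 0.275% elsewhere, and Ighv1-81 ran from 0.517% to 5.43%.

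Lesions were compared by the share of Ighv counts they hold in common, the sum over segments of the smaller of both shares. It was 23.3% to 44.7% between WT lesions, 30.1% to 57.4% between KO lesions and 26.5% to 45.9% between a WT and a KO lesion, so lesions of 1 genotype were not set apart from the rest. The highest value, 57.4%, was for KO replicates 1 and 2, which had 8 of their 10 leading segments in common, among them Ighv1-9, Ighv1-26, Ighv1-50 and Ighv1-5. Their kappa segments, a separate locus on another chromosome, also had the highest common share of the 15 pairs, at 57.3%. Each of these 2 lesions with KO replicate 3 had 30.1% and 39.5%. WT replicates 1 and 3, which both held muscle transcripts, had the lowest common share, 23.3%.

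The share of the Ighv1 family did not overlap between the groups. It was not a planned measure but 1 of the shares computed for every family with counts. The Ighv1 family, the largest with 93 of the 185 segments, held 39.3%, 49.3% and 49.7% of the Ighv counts in WT and 77.8%, 73.7% and 62.2% in KO lesions. All KO values exceeded all WT values (46.1% ± 5.91 in WT and 71.2% ± 8.09 in KO, SD, n = 3, p = 0.1 by the exact permutation test). The leading segments were Ighv1 members in all 3 KO and in no WT lesion, so leaving them out lowers the share of each KO lesion and raises that of each WT lesion by construction. The share was then 51.2%, 63.0% and 69.9% in WT and 68.5%, 66.8% and 58.6% in KO lesions, values that overlapped and that are given as a description. The Ighv6 family held 4.58%, 3.68% and 3.73% in WT and 3.40%, 1.07% and 0.204% in KO lesions, with each WT share above those of the KO lesions (p = 0.1 by the exact permutation test). Of the 14 families with counts, Ighv1, Ighv6 and Ighv11 alone had shares that did not overlap between the groups. By CPM, 8.74% of all tested genes had every WT value above every KO value, and 10.7% had the reverse.

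On the scale of all counts, Ighv1 and the other families were then taken apart, a split not planned beforehand. Ighv1 segments together had 51.2, 822 and 97.2 raw CPM in WT and 61.1, 51.7 and 79.7 in KO lesions, and WT replicate 1 was the lowest of all. Segments of all other families had 79.2, 846 and 98.5 raw CPM in WT and 17.4, 18.5 and 48.4 in KO lesions, without overlap, also without WT replicate 2 (exact permutation test over all 6 lesions, p = 0.1). The leading segments of the WT lesions are among them, at 30.5, 364 and 56.6 raw CPM in WT replicates 1, 2 and 3. Those of the KO lesions are not, so this gap rests in part on the leaders. Within the other families, the effective number of segments was 8.17, 11.5 and 5.88 in WT and 16.7, 12.8 and 12.1 in KO lesions. Every KO lesion was above every WT lesion (exact permutation test, p = 0.1). In WT lesions, but not in KO lesions, these families held the leading segment. A leading segment lowers the effective number, so this difference arises in part by construction and is given as a description. Within Ighv1, which held the leaders of the KO lesions, the effective number overlapped between the groups. Its mean was 15.8 in WT and 14.4 in KO lesions (exact permutation test, p = 0.8).

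**Figure D5:**
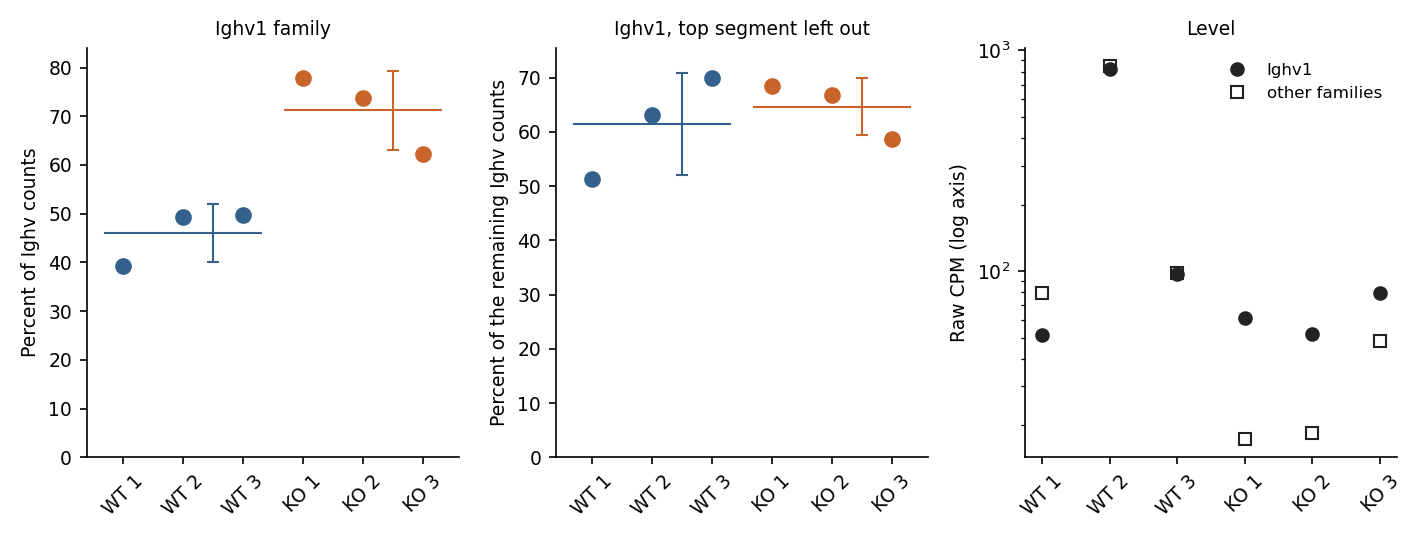
Percent of Ighv counts in the Ighv1 family (left), the same with the leading segment of each lesion left out (middle), both with the mean as a line and the SD as a bar (n = 3), and raw CPM (log axis) of Ighv1 and of all other families (right). The gap of the left panel, 46.1% against 71.2%, was 61.4% against 64.6% in the middle one, where it narrows by construction since the leaders were Ighv1 in KO lesions only.

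Fitted as sums, 13 families passed the filter on low counts and all 13 had a lower fitted level in KO lesions, beside 8790 of all 18132 features in this fit. Without WT replicate 2, 10 of 13 were lower and 3 higher, beside 8617 lower of 18875 features. Calls at the unadjusted threshold need p under 0.05 before adjustment and a log2 fold change beyond 1 in size, and by this rule 6 families were lower and 0 higher, where 5.83% of all features in this fit were lower. After Benjamini-Hochberg adjustment 0 families passed in edgeR, and 4 passed as lower in DESeq2, beside 3.91% of all features. Ighv7 had 4.03, 36.5 and 64.9 CPM in WT lesions, against 1.11, 2.28 and 1.65 CPM in KO, without overlap. Its log2 fold change was -4.39 (SE 1.01) and did not pass in edgeR's model (adjusted p = 0.319), and without WT replicate 2 it was -4.36. Ighv6 had 6.28, 62.7 and 7.71 CPM in WT lesions, against 2.68, 0.715 and 0.250 CPM in KO, also without overlap, with a log2 fold change of -4.38 that was -2.52 without WT replicate 2. The other 4 were Ighv2, Ighv3, Ighv5 and Ighv14, and of these only Ighv2 did not overlap between the groups. Without WT replicate 2 the families past the threshold were 3, namely Ighv2, Ighv6 and Ighv7 (5.88% of all features in that fit), and only Ighv7 was past it with each of the 6 lesions left out in turn. Ighv1 itself had a log2 fold change of -2.42 (SE 1.05), which was -0.33 without WT replicate 2 and did not pass in either fit.

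Ighv11 took 0.483%, 0.894% and 1.11% of the Ighv counts in WT and 1.31%, 1.16% and 8.10% in KO lesions, a narrow gap between the groups but for KO replicate 3, and mostly through Ighv11-2. This segment, as background, pairs with the kappa segment Igkv14-126 in antibodies of B-1a cells that bind phosphatidylcholine. Both were chosen after their values were seen. Ighv11-2 had 31, 497 and 103 counts in WT and 58, 38 and 467 in KO lesions. Igkv14-126 held 1.29%, 1.20% and 8.19% of the kappa variable counts in WT and 2.03%, 1.59% and 10.5% in KO lesions, where it led in KO replicate 3. The lesion with the highest Ighv11-2 share thus had the highest Igkv14-126 share, but WT replicate 3 had much of the second and little of the first, and bulk counts do not say which chains were in 1 cell.

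Single segments were tested with the fit over all genes, in which 58 of the 185 members passed the filter on low counts. WT replicate 2 had the highest raw CPM for 100 of the 117 detected segments, so that many passed through this lesion, and the following counts describe the tested segments and support no direction. A lower fitted level in KO lesions was found for 52 and a higher one for 6, with a median log2 fold change of -2.75, where the median over all 18177 tested genes was 0.01. At the unadjusted threshold 14 segments were lower, beside 5.85% of all tested genes, and 0 were higher, beside 3.1% of all tested genes. After adjustment, 0 segments were lower or higher, beside 0.0055% and 0% of all tested genes, and DESeq2's Wald test called 10 lower, beside 3.9% of all genes. All WT values exceeded all KO values for 5 of the 58 (8.74% of all tested genes) and the reverse held for 0 (10.7% of all tested genes). Without WT replicate 2, 61 segments passed the filter, with a median of -0.25 and a lower fitted level for 33 and a higher one for 28, and 4 were lower (5.86% of all genes in that fit) and 6 higher (2.1%). With at least 10 counts required in every lesion, 17 segments were left, and 8 were lower (5.17% of all genes in that fit).

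The segments with the smallest p-values were Ighv7-3, Ighv1-80, Ighv1-39, Ighv6-6 and Ighv1-82, all lower in KO lesions. Ighv7-3 had 3.57, 35.5 and 59.8 CPM in WT lesions, against 1.03, 0.755 and 1.00 CPM in KO. The KO values lay close together and below every WT value, with a log2 fold change of -5.14 and an SE of 1.04 (edgeR's quasi-likelihood model, unadjusted p = 0.00252, adjusted p = 0.321). Leaving out any 1 lesion kept it between -5.68 and -4.41. Ighv1-80 had 1.99, 44.2 and 12.4 CPM in WT lesions, against 0.912, 0.417 and 0.438 CPM in KO, again without overlap, with a log2 fold change of -5.04 that was -3.60 without WT replicate 2. Ighv1-39 had 1.71, 18.6 and 6.64 CPM in WT lesions, against 0.667, 0.834 and 1.02 CPM in KO, and its log2 fold change was -3.42, or -2.31 without WT replicate 2. These 3 segments were past the unadjusted threshold with each lesion left out in turn.

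Ighv6-6 had 2.75, 15.5 and 0.470 CPM in WT lesions, against 0.561, 0.238 and 0.208 CPM in KO, where WT replicate 3 lay below KO replicate 1. Its log2 fold change was -4.19, or -2.24 without WT replicate 2, and it missed the threshold without KO replicate 2 or 3. Ighv1-82 had 0.470, 40.7 and 3.10 CPM in WT lesions, against 0.351, 0.457 and 0.896 CPM in KO, and its log2 fold change of -4.70 was -1.65 and past no threshold without WT replicate 2. Of the leading segments, Ighv3-6 and Ighv1-11 were also past the unadjusted threshold. The first had 16.7, 372 and 1.56 CPM in WT lesions, against 0.281, 1.03 and 4.96 CPM in KO, and its log2 fold change was -5.96, or -2.13 without WT replicate 2. Ighv1-11 had 3.12, 151 and 55.2 CPM in WT lesions, against 5.89, 4.01 and 10.6 CPM in KO, and its log2 fold change was -3.35, or -2.09 without it. For both, the groups overlapped, and their calls, like that of Ighv1-82, were lost without WT replicate 2 and without any 1 of the KO lesions. The leading segments of KO replicates 1 and 2 were not past the threshold in either direction: Ighv1-9 had a log2 fold change of 1.03 (SE 1.35) and Ighv1-26 one of -0.65 (SE 1.30).

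The constant gene joined to the segment sets the antibody class. Ighm, the constant gene of IgM, held 28.5%, 23.4% and 75.8% of the heavy-chain constant counts in WT and 85.4%, 79.0% and 51.5% in KO lesions. The IgG genes held 42.5%, 63.9% and 14.1% in WT and 0.994%, 1.56% and 28.5% in KO, so that KO replicates 1 and 2 had hardly any and KO replicate 3 more than WT replicate 3. Igha, the constant gene of IgA, held 28.6%, 12.5% and 9.83% in WT and 13.4%, 19.2% and 19.5% in KO. Groups overlapped for all 3 classes (exact two-sided permutation test, p = 0.2, 0.2 and 0.9). The pair with the most alike segments, KO replicates 1 and 2, were also the lesions with the least IgG. Rag1 and Rag2, which join the segments in developing B cells, had 4 counts and 0 counts over all 6 lesions.

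Light-chain segments gave a like picture in part. Detected kappa variable segments numbered 77, 106 and 77 in WT and 74, 62 and 71 in KO lesions. Unlike all Ighv segments, these did not overlap (exact two-sided permutation test, p = 0.1). Their mean effective number was slightly lower in KO (24.3) than in WT lesions (25.1), where that of Ighv segments was higher in KO. The effective number of kappa variable segments was 24.4, 33.6 and 17.3 in WT and 20.7, 21.6 and 30.5 in KO lesions, so WT replicate 2 was again the most even and WT replicate 3 the least. The leading kappa segment also differed in each lesion: Igkv14-111, Igkv1-110 and Igkv6-32 in WT and Igkv3-4, Igkv10-96 and Igkv14-126 in KO replicates 1, 2 and 3. Its share was 22.7%, 10.96% and 24.0% in WT and 24.3%, 23.3% and 10.5% in KO. Of 163 light-chain variable segments, 66 were tested and 21 were lower and 0 higher at the unadjusted threshold, beside 5.85% and 3.1% of all tested genes. Without WT replicate 2, 68 were tested and 9 were lower and 2 higher, beside 5.86% and 2.1% of all genes in that fit.

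Of the genes around the segments, 4 of 7 tested heavy-chain constant genes, 2 of 4 light-chain constant genes, 3 of 14 plasma cell genes and 9 of 13 B cell genes were lower at the unadjusted threshold, beside 5.85% of all tested genes, and none passed after adjustment in edgeR. The medians of the log2 fold change were -3.48, -2.12, -0.93 and -2.60. Jchain, which links antibody multimers, had 79.4, 510 and 161 CPM in WT lesions, against 51.3, 65.7 and 80.8 CPM in KO, and its log2 fold change was -1.92, or -0.87 without WT replicate 2, and its call was lost without that lesion or any 1 of the KO lesions. Ms4a1, the B cell surface protein CD20, had 3.03, 20.1 and 1.54 CPM in WT lesions, against 0.281, 0.318 and 0.792 CPM in KO, without overlap, with a log2 fold change of -4.15 that was -2.30 without WT replicate 2. The plasma cell list was mixed, with a lower fitted level in KO lesions for 9 of its 14 genes and a higher one for 5. Xbp1 had 237, 314 and 261 CPM in WT lesions, against 374, 406 and 277 CPM in KO, and Fkbp11, a chaperone, was the 1 plasma cell gene past the threshold in the other direction, at 20.8, 14.3 and 16.4 CPM in WT lesions, against 70.1, 79.0 and 20.4 CPM in KO (log2 fold change 1.72). DESeq2 gave Ms4a1 and Fkbp11 adjusted p-values of 0.00178 and 0.0298. Without WT replicate 2, 5 constant, plasma cell and B cell genes were lower in place of 17, beside 5.86% of all genes in that fit. These were 1 of 7 heavy-chain constant, 0 of 4 light-chain constant, 0 of 14 plasma cell and 4 of 13 B cell genes. In the plasma cell list 1 gene was higher, beside 2.1% of all genes in that fit. In the order of these 4 lists, the medians of the log2 fold change were then -1.05, -0.09, 0.10 and -0.97. At the unadjusted threshold, 7 of 8 tested T cell genes and 3 of 7 neutrophil genes were also lower. Without WT replicate 2 these were 2 of 8 and 0 of 7. The part of these leukocyte markers in the level of the segments was not tested.

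Of 11 tested genes for homing and survival of plasma cells, 4 were lower and 0 higher at the unadjusted threshold, beside 5.85% and 3.1% of all tested genes. These were Cxcl13, Cxcr4, Cxcr5 and Ccr9. Cxcl13, which draws B cells through the receptor Cxcr5, had 12.8, 151 and 8.41 CPM in WT lesions, against 2.03, 2.66 and 4.42 CPM in KO, without overlap. Its log2 fold change was -4.24, and -1.80 without WT replicate 2, and it missed the threshold without KO replicate 1 or 2. Ccl28, which draws IgA plasma cells to mucosa, had 377, 45.6 and 230 CPM in WT lesions, against 705, 626 and 338 CPM in KO, and was not past the threshold. Of 7 tested recombination and germinal centre genes, 0 were past the unadjusted threshold in either direction in edgeR.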

How the data were processed

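Per the labels, libraries were made with a stranded messenger RNA kit. The submitters' processing notes name Trimmomatic, featureCounts, DESeq2 and the build GRCm39, while the methods name GRCm38 and the Galaxy platform. The aligner, the strand setting of the counting and the annotation release are not given in the sources used here. Because the builds differ, no coordinates are printed. The authors deposited raw counts per gene for each library, and the 6 sample files were identical to the series table. Symbols, order along the locus, lengths and sequences came from GENCODE M21, which held 51948 of the 56884 identifiers when versions were ignored.

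KO was tested against WT with edgeR 4.0.16 under R 4.3.3 (filterByExpr, 18177 genes, TMM, quasi-likelihood test, genotype as the only term, Benjamini-Hochberg over all tested genes). Summed segments and families were fitted in the same way with their rows replaced by sums. DESeq2 1.42.0 was an alternative. Standard errors were derived from the fold change and its F statistic. Shares, diversity measures and exact permutation tests were computed with SciPy 1.17.1 in Python 3.11.15. The single-gene edgeR fit was tested on simulated counts, and the diversity measures on small made-up sets of counts with known answers. The other steps were not tested in this way.

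Named segments are the 10 with the highest mean share, the top 3 of each lesion, any past an adjusted p of 0.05 and up to 5 per direction with the smallest unadjusted p. The members, lists and rules were chosen with earlier results of these data known. Replicates are lesions numbered in the labels, nothing says which donor or recipient each came from, and p-values measure the spread between these samples.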

Additional observations from a re-analysis of the deposited data

How the results depend on the processing

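Every alternative kept the summed segments lower in KO lesions. With DESeq2's Wald test the log2 fold change was -2.95 and passed adjustment (adjusted p = 0.0317, and 0.0317 to 0.666 over all alternatives), and with 1 lesion left out it ran from -3.42 to -0.94, the last without WT replicate 2. DESeq2 called 10 segments and 4 families lower after adjustment, where edgeR called 0 of each. At the unadjusted threshold 14 of 58 segments were lower in KO, beside 1064 of 18177 genes. They numbered 27 of 117 with a filter of 1 count in all libraries together (1652 of 30336 genes), 8 of 17 with at least 10 counts in every library (835 of 16142) and 3 of 58 with the replicate number as a block (573 of 18177). With 1 lesion left out they numbered 4 of 61 (without WT replicate 2, 1108 of 18923 genes) to 25 of 70 (without WT replicate 3, 1178 of 18875). Higher segments then numbered 0 to 6. Leaving out KO replicates 1, 2 or 3 gave 7, 6 or 8 lower segments of 71 tested, beside 551 of 19002, 658 of 18925 and 1650 of 19048 genes. Lower families numbered 2 of 13 with the block (576 of 18132 features), in place of 6. With 1 lesion left out they numbered 1 of 13 (without KO replicate 2, 657 of 18867 features) to 9 of 14 (without WT replicate 3, 1169 of 18819). The replicate block brought constant, plasma cell and B cell genes lower in KO from 17 to 6, and leaving out 1 lesion gave 3 (without KO replicate 1) to 20. With the block, the summed segments had -1.90 (adjusted p = 0.632 from edgeR). Libraries with the same replicate number did not deviate together (correlations 0.03, -0.15 and -0.20), so the numbers were not taken as pairs.

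The difference KO minus WT in the effective number of segments was 2.91 and turned to -1.84 without WT replicate 3 (-1.84 to 7.38 with 1 lesion left out), and that in the share of the top segment was -5.02 percentage points and turned to 0.504 without KO replicate 3 (-9.99 to 0.504). In detected segments it was -16.7 and ran from -22.8 to -4.33. In the Ighv1 share, which was not a planned measure, it was 25.2 percentage points, and 21.8 to 29.7 with 1 lesion left out. Counts per transcript length, chosen after seeing the data, kept both directions. Rare segments are limited by the Ighv counts of a lesion, which in KO lesions were 3367 to 5879.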
